A study of Mus musculus with 6 samples.

Results

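The RANKL axis and a set of osteoclast effectors were followed in RNA-seq of primary bone marrow stromal cells from mice. The 9 genes were taken by symbol, namely the ligand Tnfsf11 (RANKL), its decoy receptor Tnfrsf11b (osteoprotegerin), its receptor Tnfrsf11a (RANK), the adaptor Traf6, the transcription factor Nfatc1, the effectors Ctsk, Itgb3 and Atp6v0d2, and the inhibitory ligand Sema3a. All 9 were found among 11896 named genes, and all 9 were among the 10905 genes tested, those averaging 1 FPKM or more. FPKM are fragments normalised to the length of the transcript and to the mapped fragments of the library, so levels of different genes are on a scale per length. Of 6 libraries, 3 came from wild-type mice (WT) and 3 from mice with an altered gene for the parathyroid hormone receptor, Pth1rΔNLS, heterozygous by the design text of the series. No treatment, age, sex or strain is given in the sources used here, nor whether libraries came from separate mice, so the p-values rest on the spread among these 6 libraries alone, some of which may be technical. By its title, the study asks how movement of this receptor into the nucleus bears on thyroid hormone signals and on bone.

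RANKL is a membrane-bound or shed cytokine made in bone by osteoblast-lineage cells, marrow stromal cells and osteocytes. It binds RANK on cells of the monocyte and macrophage lineage, and TRAF6 relays the signal to NF-κB and MAP kinases and on to NFATc1, which together with M-CSF turns precursors into osteoclasts, the cells that resorb bone. Osteoprotegerin, secreted by stromal cells and osteoblasts, captures RANKL before it reaches RANK, so the ratio of RANKL to osteoprotegerin is a common readout of how strongly stroma favours resorption. Parathyroid hormone acting on the stromal receptor is known to raise Tnfsf11 and lower Tnfrsf11b transcription.

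Promoter windows are shown for the ligand, the receptor and the most abundant effector, Ctsk, because they stand for the 3 roles in the axis and their deposited transcript starts inside the window. Each holds 250 bases before and 50 after the RefSeq start on GRCm38.p6 (the build mm10), read 5′ to 3′ on the gene's strand. Capitals mark matches, on either strand, to TATAAA (the TATA box), AGGTCA (core site of nuclear receptors such as those of thyroid hormone and vitamin D), TGACG (core of the cAMP response element), TGTGGT (RUNX), TGANTCA (AP-1), GAGGAA (PU.1) and CACGTG or CATGTG (E-boxes of MITF), and overlapping matches would share capitals.
Tnfsf11, chr14:78307994-78308293, minus strand: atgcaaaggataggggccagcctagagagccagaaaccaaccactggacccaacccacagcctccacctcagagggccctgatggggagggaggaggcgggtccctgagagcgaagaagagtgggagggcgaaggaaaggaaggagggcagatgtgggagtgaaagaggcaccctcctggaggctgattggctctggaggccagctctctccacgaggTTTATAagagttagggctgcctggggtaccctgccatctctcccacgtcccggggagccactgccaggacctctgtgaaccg
Tnfrsf11a, chr1:105780473-105780772, plus strand: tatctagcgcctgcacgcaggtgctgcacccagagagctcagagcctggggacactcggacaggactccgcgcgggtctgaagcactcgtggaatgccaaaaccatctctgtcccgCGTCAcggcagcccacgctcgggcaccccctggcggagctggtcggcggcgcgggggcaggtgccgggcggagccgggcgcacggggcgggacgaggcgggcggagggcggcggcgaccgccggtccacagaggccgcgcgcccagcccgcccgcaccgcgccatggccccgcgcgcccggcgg
Ctsk, chr3:95498960-95499259, plus strand: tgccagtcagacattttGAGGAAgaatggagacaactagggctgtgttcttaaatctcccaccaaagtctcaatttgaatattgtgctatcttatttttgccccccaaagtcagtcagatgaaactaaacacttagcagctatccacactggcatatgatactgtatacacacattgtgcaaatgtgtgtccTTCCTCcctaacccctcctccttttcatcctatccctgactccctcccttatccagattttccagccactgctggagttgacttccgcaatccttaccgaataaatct
The Tnfsf11 window held 1 match, to the TATA box on the opposite strand, beginning 32 bases before the start, a motif found in 13.6% of 32851 promoter windows of that length. The Tnfrsf11a window held 1 match, to the cAMP response element core on the opposite strand, 134 bases before the start (20.8% of all windows). In the Ctsk window GAGGAA occurred 2 times, once on each strand, 233 and 58 bases before the start (28.3% of all windows). AGGTCA was found in none of these 3 windows and in 16.3% of all windows. Promoter entries were matched for 5 of the 9 members. The RefSeq start of Sema3a lies 2525 bases from the start of its deposited transcript, and its window is not shown, nor is that of Traf6, on which no result turns. Tnfrsf11b, Nfatc1, Itgb3 and Atp6v0d2 were the members with no matched entry.

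The libraries held transcripts of both sides of the axis. Summed levels of 11 measured stromal and osteoblast markers were 1750.1 to 2248 FPKM in WT and 651 to 744 FPKM in Pth1rΔNLS, and those of 20 macrophage markers were 7006 to 7296 FPKM in WT and 9449 to 9993 FPKM in Pth1rΔNLS. Of 10 stromal and osteoblast markers tested, 10 were lower in Pth1rΔNLS (8 to 9 when any 1 library was left out), with Col1a1 at 668 ± 145 FPKM in WT and at 196 ± 23.7 FPKM in Pth1rΔNLS (SD, n = 3 each, here and throughout). Over all genes tested, 6.94% were higher and 10.4% lower. Of 20 macrophage markers, 15 were higher and 0 lower, with C1qb at 724 ± 34.8 FPKM in WT and at 1010.0 ± 61.3 FPKM in Pth1rΔNLS. That count was 9 without WT 1, 8 without WT 3, 8 without Pth1rΔNLS 2, and 4 without WT 1 and Pth1rΔNLS 1 together, the libraries with the lowest and highest share of mitochondrially encoded transcripts (6.47 and 18.2% of FPKM). In bulk samples fewer cells of a type and less RNA per cell cannot be told apart, so each result below stands beside these shifts, whose part in it was not tested. Of 8 markers of mature osteoclasts, Mmp9 was at 0.843 ± 0.189 FPKM in WT and at 0.811 ± 0.212 FPKM in Pth1rΔNLS. Acp5, Calcr, Ocstamp, Dcstamp, Oscar, Siglec15 and Car2 were looked up and were not among the 11896 named genes. Of 6 osteocyte markers, Pdpn was measured and rose from 5.50 ± 0.276 to 10.7 ± 0.664 FPKM (adjusted p = 0.00190). Dmp1, Sost, Fgf23, Mepe and Phex were not among the named genes. That list therefore rests on 1 gene and does not show a rise of osteocyte transcripts as a set. Of 6 T cell markers, Cd4 was measured, at 2.47 ± 0.343 FPKM in WT and at 2.69 ± 0.524 FPKM in Pth1rΔNLS (adjusted p = 0.748), and 0 of 5 B cell markers were among the named genes. Of 2 megakaryocyte markers tested, Pf4 (361 ± 54.8 to 511 ± 46.1 FPKM) and Ppbp (0.695 ± 0.233 to 2.24 ± 0.336 FPKM), 2 were higher, but 1 when any of WT 2, WT 3 or the 3 Pth1rΔNLS libraries was left out. Ppbp was at 0.432, 0.874 and 0.781 FPKM in WT libraries 1, 2 and 3, so it reached the filter through its Pth1rΔNLS values. Gp1bb, below the filter, was at 0.972 ± 0.147 FPKM in WT and at 0.494 ± 0.398 FPKM in Pth1rΔNLS. The megakaryocyte markers Itga2b and Gp9 were not among the named genes. Of 3 adipocyte markers tested, Fabp4 (31.9 ± 0.612 to 45.1 ± 3.38 FPKM) and Lpl (112 ± 8.94 to 154 ± 6.15 FPKM) were higher, but 0 without WT 1 and Pth1rΔNLS 1, while Pparg was at 11.3 ± 1.75 FPKM in WT and at 8.96 ± 0.622 FPKM in Pth1rΔNLS (adjusted p = 0.162) and Adipoq, below the filter, at 0.684 ± 0.274 FPKM in WT and at 0.815 ± 0.388 FPKM in Pth1rΔNLS. Of 3 endothelial markers tested, Cdh5 (4.05 ± 0.146 to 2.30 ± 0.165 FPKM) and Emcn (4.28 ± 1.18 to 2.26 ± 0.231 FPKM) were lower, but 1 when any library other than WT 2 was left out and 0 without WT 1 and Pth1rΔNLS 1. Pecam1 was at 2.09 ± 0.297 FPKM in WT and at 1.43 ± 0.324 FPKM in Pth1rΔNLS (adjusted p = 0.170). Kdr, below the filter and named after its values were seen, was at 0.817 ± 0.0949 FPKM in WT and at 0.909 ± 0.0311 FPKM in Pth1rΔNLS.

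Levels of the 9 genes covered a wide range. In WT libraries Ctsk was highest, followed by Tnfrsf11b, Tnfrsf11a, Itgb3, Nfatc1, Atp6v0d2, Traf6, Tnfsf11 and Sema3a, and the neighbours whose libraries overlapped were Itgb3 with Nfatc1 and Nfatc1 with Atp6v0d2. In Pth1rΔNLS libraries the order was Ctsk, Atp6v0d2, Tnfrsf11a, Itgb3, Tnfrsf11b, Nfatc1, Traf6, Sema3a and Tnfsf11, with overlap between Ctsk and Atp6v0d2, between Tnfrsf11a and Itgb3 and between Itgb3 and Tnfrsf11b. Osteoprotegerin thus stood at rank 2 of the 9 in WT and 5 in Pth1rΔNLS, Atp6v0d2 at rank 6 and 2, and Tnfsf11 and Sema3a exchanged ranks 8 and 9. Mean levels of Tnfsf11 and Sema3a lay low among all genes, above 5.72 and 4.998% of those tested, against 90.2% for Ctsk and 84.4% for Tnfrsf11b.

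Between genotypes, 5 of the 9 members passed an adjusted p of 0.05 (limma on log2(FPKM + 1), Benjamini-Hochberg over all genes), where 17.3% of all genes tested did. Higher in Pth1rΔNLS were 3, Itgb3, Atp6v0d2 and Sema3a (6.94% of all genes), and lower were 2, Tnfrsf11b and Ctsk (10.4% of all genes). In 8 of 9 members, all but Traf6, the libraries of the genotypes did not overlap, as in 36.6% of all genes. The median log2 fold change was 0.15 over the members and -0.01 over all genes. Of all 1886 genes called, 757 were higher and 1129 lower, a split that became 1044 and 974 when values were rescaled without mitochondrially encoded transcripts. Leaving out 1 of WT 3, Pth1rΔNLS 2 or Pth1rΔNLS 3, or WT 1 and Pth1rΔNLS 1 together, reduced the members called to 3, and those higher to 1, which was Atp6v0d2.

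**Figure D1:**
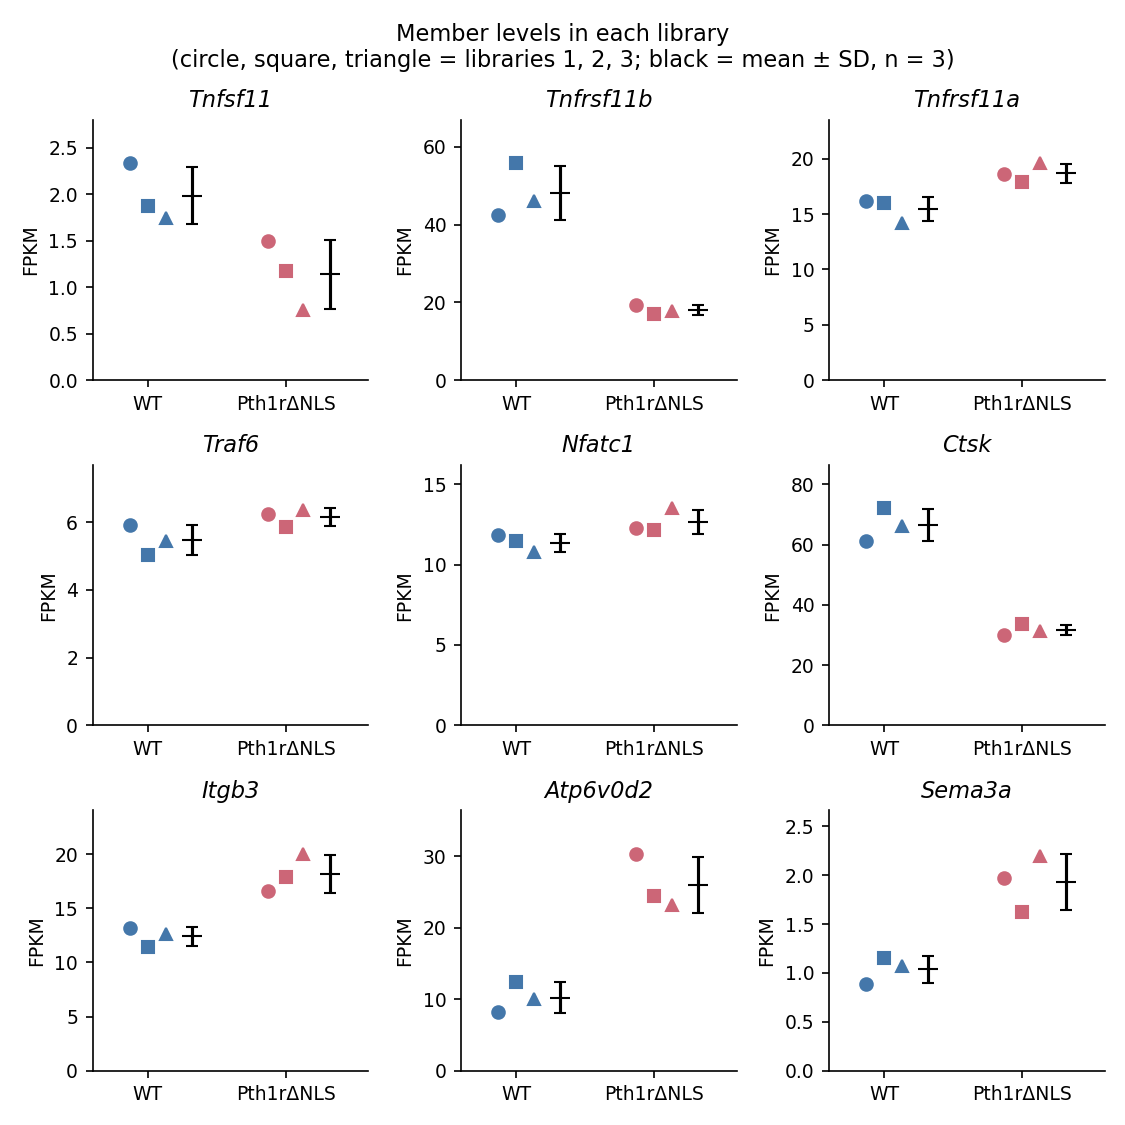
FPKM of each member (y axes, from 0) in the 3 WT (blue) and 3 Pth1rΔNLS (red) libraries, with symbols for libraries 1, 2 and 3 and black bars for the mean ± SD. Tnfrsf11b and Ctsk lie far lower in every Pth1rΔNLS library, Atp6v0d2 higher, and only in Traf6 do the genotypes overlap.

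Tnfsf11, encoding RANKL (ENSMUSG00000022015.8, chromosome 14, 78277445 to 78308043, 1 annotated transcript, listed; gene positions are those of GENCODE M21 on GRCm38, the mouse build mm10), was scarce in both genotypes. Its level was 2.34, 1.87 and 1.75 FPKM in WT libraries 1, 2 and 3 and 1.496, 1.17 and 0.752 FPKM in Pth1rΔNLS libraries 1, 2 and 3. Every Pth1rΔNLS library was below every WT library, the closest being Pth1rΔNLS 1 and WT 3. The log2 fold change of -0.49 (SE 0.17, 95% interval -0.89 to -0.09) did not pass the threshold (limma unadjusted p = 0.0238, adjusted p = 0.0994). By exact permutation, two-sided, p was 0.1, which is as small as 3 libraries against 3 can give. At this level the added 1 FPKM matters, and with 0.1 FPKM in its place the log2 fold change was -0.79 (adjusted p = 0.119). The gene stayed short of the threshold in all 16 alternatives that could be computed for it, with adjusted p of 0.0795 to 0.234.

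Tnfrsf11b, encoding osteoprotegerin (ENSMUSG00000063727.3, chromosome 15, 54250619 to 54278484, 1 annotated transcript, listed), fell in Pth1rΔNLS. Its level was 42.4, 55.8 and 46.2 FPKM in WT libraries 1, 2 and 3 and 19.4, 17.0 and 17.9 FPKM in Pth1rΔNLS libraries 1, 2 and 3. The highest Pth1rΔNLS library was below the lowest WT library by more than the spread within either genotype, and WT varied more among libraries than Pth1rΔNLS did. Means went from 48.1 ± 6.94 to 18.1 ± 1.22 FPKM, 0.376 of the WT mean, with a log2 fold change of -1.36 (SE 0.12, adjusted p = 0.000866, exact permutation p = 0.1). By absolute log2 fold change it ranked 137 of 10905 genes. The call held in all 17 alternatives, with log2 fold changes of -1.49 to -1.25. The median over stromal and osteoblast markers was -1.24, beside -1.36 for Tnfrsf11b and -0.49 for Tnfsf11. The added 1 FPKM understates the change of Tnfsf11. With 0.1 FPKM in its place the values were -1.40 for Tnfrsf11b and -0.79 for Tnfsf11.

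The ratio of Tnfsf11 to Tnfrsf11b in each library did not separate the genotypes. Per 100 FPKM of Tnfrsf11b there were 5.52, 3.36 and 3.78 FPKM of Tnfsf11 in WT libraries 1, 2 and 3 and 7.71, 6.90 and 4.21 FPKM in Pth1rΔNLS libraries 1, 2 and 3. Pth1rΔNLS 1 and 2 lay above all WT libraries, while Pth1rΔNLS 3 lay below WT 1. The means were 4.22 ± 1.14 in WT and 6.27 ± 1.83 in Pth1rΔNLS (SD, n = 3 each). The log2 ratio averaged -4.60 ± 0.37 in WT and -4.04 ± 0.46 in Pth1rΔNLS, a difference of 0.56 (SE 0.34; exact two-sided permutation p = 0.2, with 0.1 the smallest of 20 assignments). On plain log2 FPKM that difference is made of -0.85 for Tnfsf11 and -1.40 for Tnfrsf11b. The difference lay between 0.39 (without Pth1rΔNLS 1) and 0.82 (without Pth1rΔNLS 3) whichever library was left out. It was 0.87 with 1 FPKM added to both genes (exact permutation p = 0.1, the smallest possible). That addition shrinks the change of the scarce Tnfsf11, to -0.49, more than that of Tnfrsf11b, to -1.36, and so widens the difference. A ratio of messenger RNA does not measure shed or secreted protein.

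**Figure D2:**
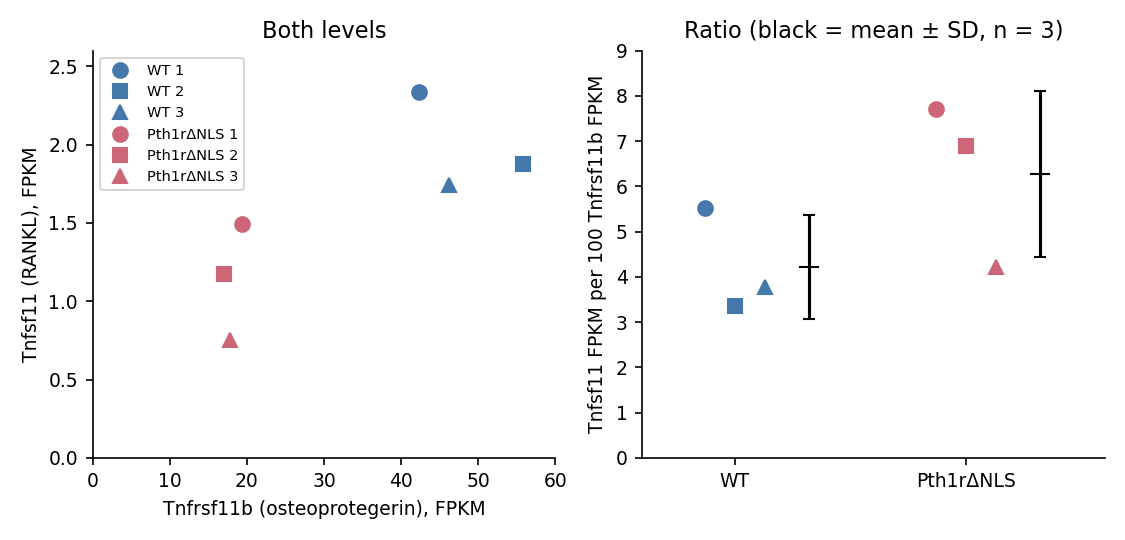
Left, Tnfsf11 against Tnfrsf11b in each library (FPKM on both axes, from 0), WT in blue and Pth1rΔNLS in red. Right, FPKM of Tnfsf11 per 100 FPKM of Tnfrsf11b with the mean ± SD of 3 libraries, showing Pth1rΔNLS 3 at 4.21 inside the WT range of 3.36 to 5.52.

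Of 7 ligands, decoys and alternative receptors of the axis, 6 were listed, Tnfsf11 and Tnfrsf11b included. Of these 6, 0 were higher and 3 lower in Pth1rΔNLS, Tnfrsf11b among them (median -0.42). Over all genes 6.94% were higher and 10.4% lower. Lgr4, a receptor of R-spondins that also binds RANKL, fell from 4.63 ± 0.0713 to 2.37 ± 0.178 FPKM (adjusted p = 0.00416). Csf1, encoding M-CSF, the growth factor that osteoclast precursors need beside RANKL, fell from 231 ± 14.4 to 181 ± 9.91 FPKM (adjusted p = 0.0246, log2 fold change -0.35) and was the most abundant transcript of the list. Il34, the other ligand of the M-CSF receptor, was at 4.76 ± 0.292 FPKM in WT and at 5.69 ± 0.135 FPKM in Pth1rΔNLS (adjusted p = 0.166; named after its values were seen). Without WT 1 and Pth1rΔNLS 1, 1 of the list passed as lower.

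Tnfrsf11a, encoding RANK (ENSMUSG00000026321.7, chromosome 1, 105780718 to 105847981, 1 of 3 annotated transcripts listed), was at 16.2, 16.0 and 14.2 FPKM in WT libraries 1, 2 and 3 and 18.6, 17.9 and 19.6 FPKM in Pth1rΔNLS libraries 1, 2 and 3. All Pth1rΔNLS libraries stood above all WT libraries by a narrow margin. The log2 fold change of 0.26 (95% interval 0.06 to 0.46) did not pass (adjusted p = 0.0843), and it passed in 2 of 17 alternatives, with array weights (0.0418) and after rescaling without mitochondrially encoded transcripts (log2 fold change 0.32, adjusted p = 0.0391). The median over macrophage markers was 0.46.

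Traf6, encoding the ubiquitin ligase that docks on the RANK tail (ENSMUSG00000027164.8, chromosome 2, 101678429 to 101701669, 1 of 3 annotated transcripts listed), did not pass the test. Its level was 5.93, 5.04 and 5.44 FPKM in WT libraries 1, 2 and 3 and 6.23, 5.85 and 6.36 FPKM in Pth1rΔNLS libraries 1, 2 and 3. WT 1 lay between Pth1rΔNLS 2 and 1, so the genotypes overlapped. The log2 fold change was 0.15 (95% interval -0.09 to 0.38, adjusted p = 0.373, exact permutation p = 0.2), so differences up to a rise of 0.38 on that scale lie within its interval.

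Of 23 genes for RANK, TRAFs, NF-κB subunits and kinases downstream, 3 were higher, 0 lower and 20 did not pass (median 0.02), where 6.94% of all genes were higher and 10.4% lower. Those higher were Nfkbia, encoding the NF-κB inhibitor IκBα (33.1 ± 2.14 to 43.8 ± 2.08 FPKM, adjusted p = 0.0168), Mapk14, encoding the kinase p38α (18.6 ± 0.538 to 24.3 ± 1.71 FPKM, adjusted p = 0.0220), and Gab2, an adaptor that binds RANK (7.75 ± 0.688 to 11.0 ± 0.697 FPKM, adjusted p = 0.0242). The number higher was 1 without WT 1, WT 3 or Pth1rΔNLS 3 and 0 without Pth1rΔNLS 1 or Pth1rΔNLS 2. Between the same genotypes 15 of 20 macrophage markers were higher, and the part of that shift in these 3 calls was not tested. The 2 lists did not lose calls with the same libraries. Leaving out Pth1rΔNLS 1 or Pth1rΔNLS 3 lowered the count here more than that of the macrophage markers.

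Nfatc1, encoding the transcription factor that drives osteoclast differentiation (ENSMUSG00000033016.16, chromosome 18, 80606205 to 80713071), was at 11.9, 11.5 and 10.8 FPKM in WT libraries 1, 2 and 3 and 12.3, 12.2 and 13.5 FPKM in Pth1rΔNLS libraries 1, 2 and 3. The genotypes did not overlap, yet the gap between WT 1 and Pth1rΔNLS 2 was smaller than the spread within either genotype. The log2 fold change of 0.14 (95% interval -0.06 to 0.34) did not pass (adjusted p = 0.302), here and in all 17 alternatives. It was the member with several listed transcripts, 4 of 7 annotated. ENSMUST00000035800.7, an 8-exon form that ends early at its 3′ side, was the most abundant in 5 libraries and second to ENSMUST00000167977.7 in WT 1, at 5.20, 4.87 and 5.58 FPKM in WT and 6.90, 6.05 and 7.40 FPKM in Pth1rΔNLS libraries 1, 2 and 3, again without overlap.

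The start of transcription used by Nfatc1 set 1 WT library apart. The 2 transcripts that start upstream, the farther by 4885 bases, summed to 0.182, 3.66 and 3.16 FPKM in WT libraries 1, 2 and 3 and 2.97, 3.20 and 2.94 FPKM in Pth1rΔNLS libraries 1, 2 and 3, so that WT 1 was nearly without them. The 2 transcripts with the downstream start summed to 11.7, 7.82 and 7.59 FPKM in WT libraries 1, 2 and 3 and 9.34, 8.98 and 10.6 FPKM in Pth1rΔNLS libraries 1, 2 and 3, with WT 1 the highest of all. In WT 1 the 10-exon ENSMUST00000167977.7 took 54.6% of the gene's FPKM, against 18.8 to 25.6% in the other 5 libraries. Neither sum separated the genotypes (exact permutation p = 0.9 upstream and 0.6 downstream). StringTie divides reads that overlapping transcripts share by estimate, and the part of that step in the WT 1 values was not tested.

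**Figure D3:**
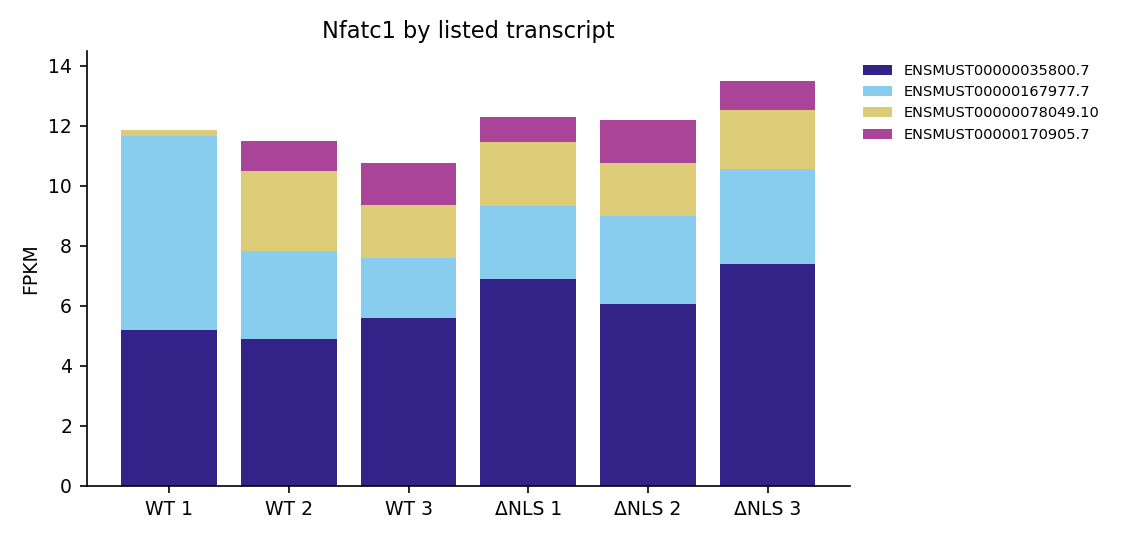
Stacked FPKM of the 4 listed Nfatc1 transcripts in each library (y axis from 0; ΔNLS stands for Pth1rΔNLS). Bar heights lie at 10.8 to 11.9 FPKM in WT and 12.2 to 13.5 FPKM in Pth1rΔNLS, and WT 1 lacks nearly all of the upstream-start transcripts.

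Around Nfatc1, 6 of 20 genes for osteoclast transcription factors, their repressors and calcineurin were higher in Pth1rΔNLS, 1 lower and 13 did not pass (median 0.13). Among all genes tested 6.94% were higher and 10.4% lower. Mitf, a factor that acts on osteoclast effector genes, rose from 9.17 ± 0.451 to 14.2 ± 0.887 FPKM (adjusted p = 0.00647). Irf8, known to restrain Nfatc1 in osteoclast precursors, rose from 15.6 ± 1.43 to 23.8 ± 0.865 FPKM (adjusted p = 0.00706). Rcan1, a calcineurin inhibitor that is itself an NFAT target, rose from 12.9 ± 1.23 to 19.7 ± 0.996 FPKM (adjusted p = 0.00903), and Ppp3cb, a catalytic subunit of calcineurin, fell from 23.7 ± 1.39 to 16.9 ± 0.782 FPKM (adjusted p = 0.00986). The number higher was 3 without Pth1rΔNLS 2 or Pth1rΔNLS 3 and 1 without WT 1 and Pth1rΔNLS 1, and the number lower was 2 without Pth1rΔNLS 2. Without WT 1 and Pth1rΔNLS 1, or with the most abundant transcript in place of the sum, 0 were lower, so the Ppp3cb call was lost. Spi1, 1 of the 6, is also among the macrophage markers, of which 15 of 20 were higher.

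Co-stimulation of RANK runs through adaptors with ITAM motifs, which macrophages use as well. Of 11 such genes tested, 6 were higher, 0 lower and 5 did not pass (median 0.41), where 6.94% of all genes were higher and 10.4% lower. With no filter on low values 1 was lower, and Camk4, a kinase downstream of calcium signals that was below the filter and is named after its values were seen, was at 1.27 ± 0.0845 FPKM in WT and at 0.249 ± 0.0119 FPKM in Pth1rΔNLS. Tyrobp, encoding the adaptor DAP12, rose from 286 ± 6.23 to 439 ± 16.1 FPKM (adjusted p = 0.00162), and Syk, the kinase it recruits, from 15.6 ± 1.996 to 28.6 ± 3.01 FPKM (adjusted p = 0.00611). The scaffolds Blnk (25.8 ± 0.842 to 41.4 ± 2.72 FPKM, adjusted p = 0.00229) and Lcp2 (21.2 ± 0.448 to 28.4 ± 0.167 FPKM, adjusted p = 0.00747) rose too. Without WT 1 and Pth1rΔNLS 1 the number higher was 3. Tyrobp and Fcer1g are also in the macrophage list.

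Ctsk, encoding cathepsin K, the collagen-degrading protease of osteoclasts that fibroblasts and osteoblast-lineage cells also express (ENSMUSG00000028111.4, chromosome 3, 95499256 to 95509362, 1 annotated transcript, listed), was the most abundant member and fell in Pth1rΔNLS. Its level was 61.3, 72.1 and 66.1 FPKM in WT libraries 1, 2 and 3 and 30.0, 33.5 and 31.4 FPKM in Pth1rΔNLS libraries 1, 2 and 3. Each Pth1rΔNLS library was far below each WT library, and the spread within genotypes was small beside the gap. The mean in Pth1rΔNLS was 0.476 of that in WT, with a log2 fold change of -1.05 (SE 0.08, adjusted p = 0.000725, exact permutation p = 0.1). The call held in all 17 alternatives (-1.10 to -0.98). Its direction was that of the stromal and osteoblast markers, 10 of 10 lower, and opposite to that of the macrophage markers, 15 of 20 higher.

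Other effector genes moved both ways. Of 13 osteoclast effector genes tested, 5 were higher, 3 lower and 5 did not pass (median 0.12). For all genes the shares were 6.94% higher and 10.4% lower. Beside Ctsk, the lower ones were Mmp14, a membrane-bound metalloproteinase that stromal cells express and that can shed RANKL (149 ± 16.5 to 80.8 ± 4.96 FPKM, adjusted p = 0.00246), and Rab7, a small GTPase of late endosomes (154 ± 7.71 to 105 ± 20.4 FPKM, adjusted p = 0.0447, named after its values were seen). Higher were Atp6v0d2, Itgb3 and Tcirg1, the proton pump subunit a3 that acidifies the resorption pit (23.4 ± 3.03 to 37.2 ± 3.14 FPKM, adjusted p = 0.0127), and, named after their values were seen, Clcn7, the chloride-proton exchanger of the ruffled border (18.9 ± 1.56 to 27.0 ± 2.09 FPKM, adjusted p = 0.0166), and Plekhm1, an adaptor of lysosome traffic (10.9 ± 1.40 to 18.7 ± 2.59 FPKM, adjusted p = 0.0146). Without Pth1rΔNLS 2, or without WT 1 and Pth1rΔNLS 1, 1 gene of the list was higher, and without Pth1rΔNLS 3, 2 were. The number lower was 2 after rescaling without mitochondrially encoded transcripts and with quantile normalization, and 2 to 3 with libraries left out. Of the 3 lower genes Rab7 was closest to the threshold, at 120, 82.0 and 114 FPKM in Pth1rΔNLS libraries 1, 2 and 3. Macrophages express lysosomal genes of this kind too, and 15 of 20 macrophage markers were higher in the same libraries. The part of that shift in the effector values was not tested.

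Atp6v0d2, encoding the d2 subunit of the vacuolar proton pump, which is found in osteoclasts and macrophages and takes part in fusion of osteoclast precursors (ENSMUSG00000028238.6, chromosome 4, 19876841 to 19922605, 1 of 2 annotated transcripts listed), rose in Pth1rΔNLS. Its level was 8.18, 12.5 and 10.01 FPKM in WT libraries 1, 2 and 3 and 30.3, 24.4 and 23.1 FPKM in Pth1rΔNLS libraries 1, 2 and 3. The lowest Pth1rΔNLS library was far above the highest WT library. The mean was 2.54 times that of WT, with a log2 fold change of 1.27 (SE 0.17, adjusted p = 0.00430, exact permutation p = 0.1), against a median of 0.46 over the macrophage markers. By absolute log2 fold change it ranked 177 of 10905 genes. The call held in all 17 alternatives (1.02 to 1.41).

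Among 19 subunits and accessory proteins of the pump, 5 were higher, Atp6v0d2 included, 0 lower and 14 did not pass (median 0.18). The shares over all genes were 6.94% higher and 10.4% lower. Atp6v1a, the catalytic subunit, rose from 100.3 ± 2.54 to 142 ± 2.94 FPKM (adjusted p = 0.00246), Atp6v0a1 from 33.8 ± 2.55 to 48.9 ± 3.32 FPKM (adjusted p = 0.00983), and Tcirg1 as above. The widely expressed paralogue of Atp6v0d2, Atp6v0d1, was at 63.1 ± 3.42 FPKM in WT and at 73.3 ± 0.637 FPKM in Pth1rΔNLS (adjusted p = 0.0698; named after its values were seen), so on the scale per length the d1 form exceeded d2 in both genotypes. Without Pth1rΔNLS 2, without Pth1rΔNLS 3, or without WT 1 and Pth1rΔNLS 1, 3 were higher.

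Itgb3, encoding the integrin β3 chain that with αv forms the vitronectin receptor of osteoclasts (ENSMUSG00000020689.4, chromosome 11, 104608000 to 104670476, 1 of 2 annotated transcripts listed), rose in Pth1rΔNLS. Its level was 13.2, 11.4 and 12.6 FPKM in WT libraries 1, 2 and 3 and 16.6, 17.9 and 20.04 FPKM in Pth1rΔNLS libraries 1, 2 and 3. The genotypes did not overlap, and the gap between them was wider than the range within WT and slightly narrower than that within Pth1rΔNLS. The log2 fold change was 0.52 (SE 0.10, adjusted p = 0.0168, exact permutation p = 0.1), beside a median of 0.46 over macrophage markers. The call was lost in 6 of 17 alternatives, among them when WT 3 (0.0547), Pth1rΔNLS 2 (0.0589) or Pth1rΔNLS 3 (0.0560) was left out, or WT 1 together with Pth1rΔNLS 1 (0.0626), each value an adjusted p.

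Of 16 genes for β3 integrin, its partners and signalling proteins, 5 were higher, Itgb3 included, 1 lower and 10 did not pass (median 0.21). Across all genes 6.94% were higher and 10.4% lower. Its usual partner chain Itgav was at 22.3 ± 1.13 FPKM in WT and at 25.8 ± 3.69 FPKM in Pth1rΔNLS (adjusted p = 0.311; named after its values were seen). Vav3, an exchange factor that osteoclasts use downstream of the integrin, rose from 8.35 ± 0.272 to 14.1 ± 1.54 FPKM (adjusted p = 0.00627), and Rac2, a small GTPase found mainly in haematopoietic cells, from 24.6 ± 3.23 to 37.8 ± 0.676 FPKM (adjusted p = 0.0113). Of the kindlins, which activate integrins, Fermt2, the form of stromal cells, fell from 80.7 ± 6.27 to 52.3 ± 0.948 FPKM (adjusted p = 0.00313), while Fermt3, the haematopoietic form, rose from 38.5 ± 5.01 to 59.6 ± 5.88 FPKM (adjusted p = 0.0174; named after its values were seen). The number higher was 3 without WT 3 or Pth1rΔNLS 2, and 2 without Pth1rΔNLS 3 or without WT 1 and Pth1rΔNLS 1. These directions stand beside 10 of 10 stromal markers lower and 15 of 20 macrophage markers higher.

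Sema3a, encoding the secreted semaphorin 3A, which osteoblast-lineage cells make and which restrains osteoclast differentiation through neuropilin-1 and plexin-A (ENSMUSG00000028883.17, chromosome 5, 13125414 to 13602565, 1 of 9 annotated transcripts listed), rose from a low level. Its level was 0.887, 1.15 and 1.07 FPKM in WT libraries 1, 2 and 3 and 1.97, 1.63 and 2.20 FPKM in Pth1rΔNLS libraries 1, 2 and 3. Every Pth1rΔNLS library was above every WT library. The log2 fold change was 0.52 (SE 0.13, adjusted p = 0.0358, exact permutation p = 0.1), and 0.84 with 0.1 FPKM added in place of 1 (adjusted p = 0.0428). The call was the least stable of the 5, since it was lost when any 1 library was left out (adjusted p = 0.0557 to 0.111), without WT 1 and Pth1rΔNLS 1 (0.207), and with libraries rescaled to an equal sum (0.0569). Its direction was opposite to that of the stromal and osteoblast markers, 10 of 10 lower.

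Of 12 tested genes for semaphorins, neuropilins, plexins and their effectors, 2 were higher, 0 lower and 10 did not pass (median 0.03), where 17.3% of all genes passed in either direction. With no filter on low values 1 was lower, and Sema3f, named after its values were seen and below the filter, was at 0.852 ± 0.256 FPKM in WT and at 0.274 ± 0.0974 FPKM in Pth1rΔNLS. Beside Sema3a, Nrp1, encoding the receptor neuropilin-1, rose from 94.9 ± 3.47 to 131 ± 2.33 FPKM (adjusted p = 0.00404), and 1 gene of the list, not Sema3a, passed when any 1 library was left out. Sema4d, known in bone as an osteoclast product that restrains osteoblasts, was at 23.8 ± 0.596 FPKM in WT and at 29.9 ± 3.07 FPKM in Pth1rΔNLS (adjusted p = 0.0615), and Sema3c at 1.29 ± 0.122 FPKM in WT and at 0.780 ± 0.252 FPKM in Pth1rΔNLS (adjusted p = 0.135).

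Of 23 tested receptors and factors through which stromal cells are known to control Tnfsf11 or Tnfrsf11b, 2 were higher, 10 lower and 11 did not pass (median -0.56), where 6.94% of all genes were higher and 10.4% lower. Lifr, the receptor chain for leukaemia inhibitory factor, fell from 32.1 ± 1.87 to 10.6 ± 0.662 FPKM (adjusted p = 0.000205), and Osmr, the oncostatin M receptor chain, from 22.7 ± 3.41 to 10.1 ± 0.993 FPKM (adjusted p = 0.00268). Vdr, the vitamin D receptor, which acts on the Tnfsf11 gene, fell from 4.24 ± 0.414 to 1.495 ± 0.205 FPKM (adjusted p = 0.00229). Pth1r itself was lower, at 6.31 ± 1.63 FPKM in WT and at 2.21 ± 0.683 FPKM in Pth1rΔNLS (adjusted p = 0.0140; named after its values were seen), a level per gene that does not tell the altered allele from the normal one and so checks no label. The 2 higher genes, named after their values were seen, were Il6ra, the interleukin-6 receptor (11.2 ± 0.677 to 17.8 ± 1.64 FPKM, adjusted p = 0.00790), and Mef2c, a transcription factor of osteocytes and other cells (8.91 ± 0.249 to 13.5 ± 1.51 FPKM, adjusted p = 0.0147). The number lower was 6 without WT 3 or Pth1rΔNLS 1 and 5 without WT 1 and Pth1rΔNLS 1, and the number higher was 4 without WT 2 and 1 without WT 3, Pth1rΔNLS 1 or Pth1rΔNLS 3. In the same libraries 10 of 10 stromal and osteoblast markers were lower.

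**Figure D4:**
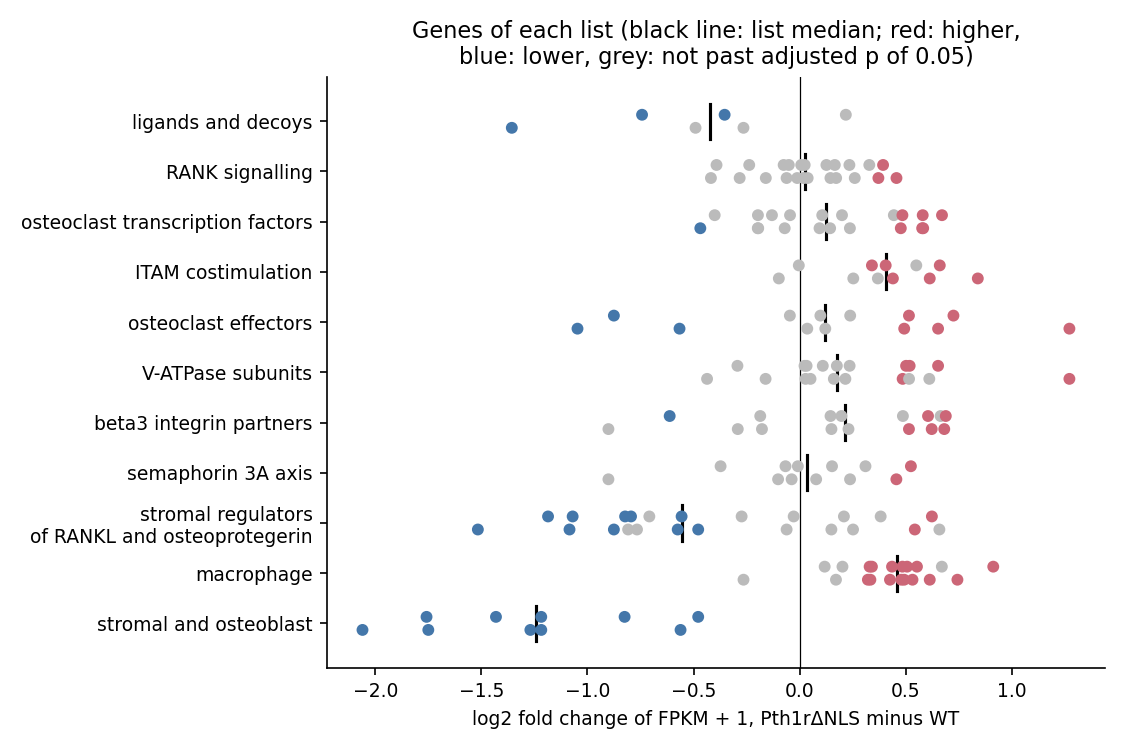
Log2 fold change of each tested gene in 9 lists of the axis and in 2 marker lists (x axis, Pth1rΔNLS minus WT on log2(FPKM + 1)), with black lines at list medians. Calls among ligands and decoys and stromal regulators lie mostly below 0, those among ITAM and proton pump genes above 0, and osteoclast effectors on both sides.

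Genes with the profile most like that of a member were found by the root mean square difference of log2(FPKM + 1), centred on each gene's mean over 6 libraries. For Tnfrsf11b these were Ces1g and Rnd3 (difference 0.08 each), for Ctsk Kdelr3 (0.02) and Ppic (0.04), and for Tnfsf11 Tsen15 (0.05). Rnd3 was at 52.5, 59.3 and 53.7 FPKM in WT libraries 1, 2 and 3 and 20.4, 19.3 and 20.04 FPKM in Pth1rΔNLS libraries 1, 2 and 3, levels close to those of Tnfrsf11b. For Atp6v0d2 the nearest were Clec4e, encoding a C-type lectin receptor of macrophages, and Ccl6, a myeloid chemokine (0.08 each), and for Itgb3 Atp6v0a1, which is also in the proton pump list, and Acaa2 (0.02 each). Ccl6 was at 18.9, 27.1 and 20.2 FPKM in WT libraries 1, 2 and 3 and 57.9, 52.6 and 50.5 FPKM in Pth1rΔNLS libraries 1, 2 and 3. For Tnfrsf11a the nearest were Esco2 and Ecpas, for Traf6 Aco1 and Mindy2, for Nfatc1 Pik3cb and Plxna2, and for Sema3a Slc35f6 and Rasgef1a, at differences of 0.02 to 0.04. All profiles share the same 6 libraries in 2 genotypes.

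**Figure D5:**
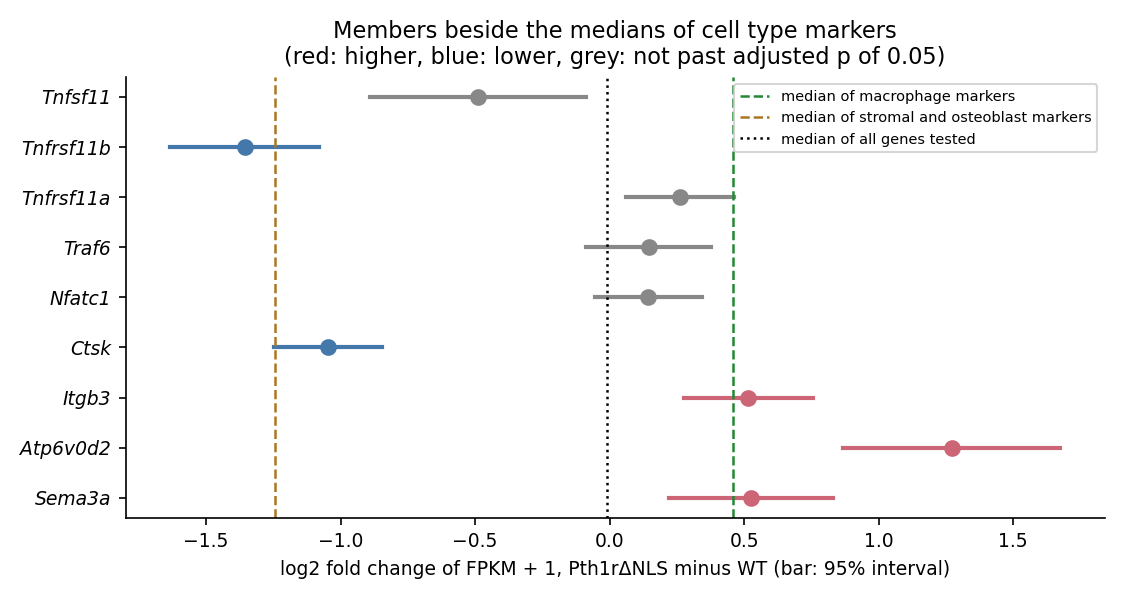
Log2 fold change of each member with its 95% interval (x axis, Pth1rΔNLS minus WT on log2(FPKM + 1)); dashed lines mark the medians of 0.46 for macrophage markers and -1.24 for stromal and osteoblast markers. Tnfrsf11b and Ctsk lie near the stromal median, Itgb3 near the macrophage median, and Atp6v0d2 beyond it. The tested markers themselves, not drawn, spread from -2.06 to -0.48 for stromal and osteoblast and from -0.26 to 0.91 for macrophage. Sema3a, a low gene, lies at 0.52 here and was at 0.84 with 0.1 FPKM added in place of 1. Tnfsf11, also low, lies at -0.49 and was at -0.79 with 0.1 FPKM added. The places of Sema3a and Tnfsf11 beside the medians therefore depend on that setting.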

How the data were processed

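The authors deposited 1 value per transcript and library, and their header names no unit. Reads were handled with HISAT2 and StringTie on mm10, per the submitters' processing notes; the sources used here give no versions, annotation or use of strand. The deposited values were taken as FPKM: multiplied by transcript length they summed to 75.0 to 78.1% of what FPKM of a complete library must sum to. Low values fell within 0.1 of a whole-read step in 21.9 to 22.2% of cases (20% by chance), so depth is unknown and no counting interval is given. Of 23351 transcripts, 23300 were named by identifier from GENCODE M21, and FPKM were summed per gene.

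Genotypes were compared across all genes with limma 3.58.1 in R 4.3.3 (lmFit, eBayes with trend, two-sided) on log2(FPKM + 1), which understates changes of low genes, for genes averaging 1 FPKM or more. SE is the moderated standard error. The test was checked on simulated data with independent noise in each gene and library. That check does not cover effects that many genes of a library share, such as the share of mitochondrially encoded transcripts. Exact permutation tests used Python 3.11.15. Genes named are all members, up to 4 of smallest p per pathway list, markers of highest level, nearest profiles (1 is not reported here), and others marked as named after their values were seen. Members and lists were chosen with earlier results of these data known, and list counts have no test of their own. Overlapping antisense genes cannot be told apart without strand.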

Additional observations from a re-analysis of the deposited data

How the results depend on the processing

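Tnfrsf11b, Ctsk and Atp6v0d2 kept direction and call in all 17 alternatives, and no member changed direction in any. With 1 library left out, genes called ranged from 1051 to 1712 (348 to 695 higher, 703 to 1017 lower) and members called from 3 to 4 (1 to 2 higher). Without WT 1 and Pth1rΔNLS 1 there were 620 genes (191 higher, 429 lower) and 3 members (1 higher); fewer samples alone lower such counts. With libraries rescaled to an equal sum 3 members passed (1 higher), and with the most abundant transcript in place of the sum 464 genes were higher. The main counts were 1886 genes (757 higher, 1129 lower) and 5 members (3 higher, 2 lower).

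Same-numbered WT and Pth1rΔNLS libraries did not deviate together (correlations of deviations -0.19, -0.07 and 0.07 for numbers 1, 2 and 3). With 3 libraries per genotype this cannot show whether the numbers pair the samples, which stays unknown. With the replicate number as a block, 792 genes (232 higher, 560 lower) and 3 members (1 higher) passed, the members lost being Itgb3 and Sema3a; the block takes residual degrees of freedom, and the ratio of Tnfsf11 to Tnfrsf11b differed by 0.56 (exact sign-flip p = 0.25, the smallest for 3 pairs).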
